A study of Mus musculus with 18 samples.

Results

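Transcripts of 9 transcription factors of myeloid lineage choice were followed by bulk RNA sequencing in bone marrow cells of mice that were wild type (WT), heterozygous knockout (HET) or homozygous knockout (KO) for Fabp4, a fatty acid binding protein gene. The genes, taken by name, were Cebpa, Cebpb, Cebpd, Cebpe, Spi1, Irf8, Irf4, Gfi1 and Zeb2, among 22017 genes listed for cells labelled as sorted from vitro bone marrow (the in vitro set) and 13195 listed for cells labelled as sorted from bone marrow (the bone marrow set). The in vitro set had 3 libraries of each genotype, and the bone marrow set had 3 WT, 2 HET and 3 KO libraries here. The sorted population, the culture conditions, the construct of the Fabp4 allele and the strain and age of the mice were not stated by the labels. Values were FPKM, the fragments assigned to a gene scaled for transcript length and for library size, as the authors deposited them.

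Blood precursors that enter the myeloid branch are guided by a small circuit of factors that act on each other's genes. PU.1, the product of Spi1, is an ETS factor that opens myeloid enhancers, and the C/EBP leucine zipper proteins act beside it to turn on granule, receptor and cytokine signalling genes. IRF8 tips precursors towards monocytes and dendritic cells, whereas C/EBPε and the repressor GFI1 are needed for neutrophil maturation, and GFI1 is known to repress monocyte genes. IRF4 is a close relative of IRF8 with roles in lymphocytes, dendritic cells and macrophages, and ZEB2 is a zinc finger repressor that acts in monocyte and dendritic cell development.

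The proximal promoters of Cebpa, Cebpb and Irf8 are shown because Cebpa and Cebpb varied together over the in vitro libraries (r = 0.83), while Irf8 was nearly unrelated to Cebpa (0.03) and followed Cebpb less closely (0.42). A RefSeq promoter entry on GRCm38.p6 was found for 6 of the 9 genes, and each window printed is the 250 bases before the transcription start. Cebpa lies on the plus strand at chr7:35119043-35119292, Cebpb on the plus strand at chr2:167688665-167688914 and Irf8 on the plus strand at chr8:120736108-120736357. In Cebpa, capitals mark the C/EBP core TTGCGC and the TATAAA element of basal promoters. In Cebpb they mark TGACG, the core of the cAMP response element, on either strand. In Irf8 they mark TTCNNNGAA, the spacing bound by STAT proteins, and again the TATAAA element.
Cebpa: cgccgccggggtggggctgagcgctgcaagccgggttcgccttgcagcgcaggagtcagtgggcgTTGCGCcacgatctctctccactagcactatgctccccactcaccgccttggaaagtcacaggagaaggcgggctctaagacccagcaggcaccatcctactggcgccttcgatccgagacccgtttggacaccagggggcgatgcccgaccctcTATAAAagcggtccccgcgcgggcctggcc
Cebpb: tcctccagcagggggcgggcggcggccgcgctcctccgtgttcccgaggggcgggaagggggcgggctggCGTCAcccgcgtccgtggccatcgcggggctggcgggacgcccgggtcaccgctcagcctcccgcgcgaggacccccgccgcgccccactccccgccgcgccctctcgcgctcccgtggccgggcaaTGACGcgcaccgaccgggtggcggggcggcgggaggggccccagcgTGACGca
Irf8: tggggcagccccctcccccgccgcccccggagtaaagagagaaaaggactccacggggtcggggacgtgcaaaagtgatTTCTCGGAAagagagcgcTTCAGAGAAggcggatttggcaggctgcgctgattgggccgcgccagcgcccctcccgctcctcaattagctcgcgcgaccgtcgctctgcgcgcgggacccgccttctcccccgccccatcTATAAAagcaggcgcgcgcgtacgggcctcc

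The Cebpa window held TTGCGC 185 to 180 bases and TATAAA 30 to 25 bases before the start. The C/EBP consensus TTNNGNAA had 0 matches there. The Cebpb window held TGACG in 3 places, 180 to 176, 53 to 49 and 7 to 3 bases before the start, and was 81.6% G and C against a median of 52% over 27025 mouse promoters. The Irf8 window held TTCNNNGAA in 2 places, 171 to 163 and 153 to 145 bases before the start, and TATAAA 31 to 26 bases before it. It also held, unmarked, the GFI1 site AAATCA 175 to 170 bases and CCAAT 121 to 117 bases before the start (12.7% and 34.5% of all windows). Searched on both strands, TTGCGC occurred in 5.47% of all promoter windows of this length, TGACG in 17.8%, TTCNNNGAA in 7.14% and TATAAA in 13%. These matches describe the letters of each window and do not show that a factor binds there.

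In GENCODE M21 (GRCm38), Cebpa lies at chr7:35119293-35121928, Cebpb at chr2:167688915-167690418, Cebpd at chr16:15887286-15891031 and Cebpe, on the minus strand, at chr14:54710360-54712174. Spi1 lies at chr2:91082390-91115756, Irf8 at chr8:120736358-120756694 and Irf4 at chr13:30749226-30766976, all on the plus strand. Gfi1 at chr5:107716657-107726036 and Zeb2 at chr2:44983632-45117395 lie on the minus strand. Genes on the other strand overlap Cebpa (Gm45091), Cebpb (Tmem189), Cebpd (Spidr), Gfi1 (A430072P03Rik) and Zeb2 (Zeb2os among others). The sources used here do not say whether counting used strand, so reads of these pairs may not have been told apart.

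Depth estimated from the steps of low FPKM values was 30.6 to 36.9 M fragments in vitro. In bone marrow it was 3.96 M in HET replicate 1, 11.8 M in HET replicate 3 and 16.2 to 35.7 M in the others. These estimates are approximate, above all in bone marrow, where each rests on 28 to 53 low values. Genes above 0 numbered 16779 to 18029 per library in vitro. They numbered 3633 and 5209 in the 2 HET libraries of bone marrow and 6560 to 8526 in its WT and KO libraries. Fabp4 itself was near the floor in vitro, at 0.0326 and 0.330 FPKM in WT replicates 2 and 3 and 0.0676 in HET replicate 2, and listed at 0 in the other 6 libraries. It therefore did not check the genotype labels, and Fabp4 in bone marrow was not analysed here. Early granulocyte genes were high in both sets, with summed FPKM of 6683 to 10125 in vitro and 6327 to 12652 in bone marrow. Neutrophil markers summed to 655 to 4583 FPKM in vitro and to 1426 to 225940 in bone marrow. Eosinophil, basophil and mast cell genes summed to 3149 to 6029 FPKM in vitro, where all 17 were listed. In bone marrow, where 7 of them were listed, they summed to at most 257.9.

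Of the 9 factors, 8 passed the expression filter (1 FPKM or more in 3 or more libraries) in each set, and Irf4 failed it in both. In WT cells in vitro the order of mean FPKM was Spi1 (92.9), Cebpa (88.7), Cebpe (85.2), Cebpb (63.8), Gfi1 (33.9), Cebpd (8.16), Zeb2 (7.36), Irf8 (6.58) and Irf4 (0.0233). The first 4 overlapped with their neighbours, as did Cebpd, Zeb2 and Irf8. The step from Cebpb to Gfi1, the step from Gfi1 to Cebpd and the step from Irf8 to Irf4 were free of overlap. Against all genes listed, Cebpa, Cebpb, Cebpe and Spi1 lay at or above the 94.0th percentile in each of the 9 in vitro libraries. Irf4 lay between the 24.7th and the 42.4th percentile.

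**Figure D1:**
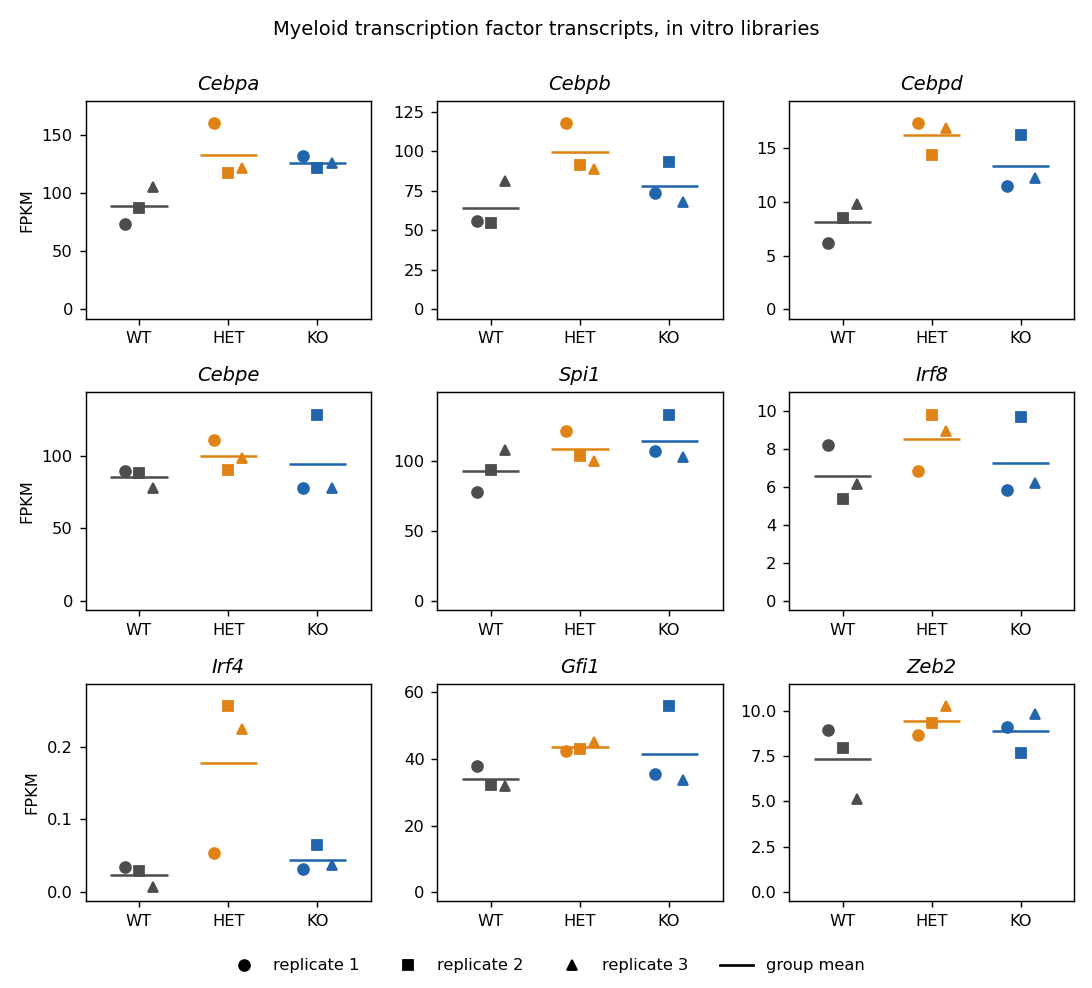
FPKM of the 9 factors in the 9 in vitro libraries, each panel with its own axis from 0, genotypes on the horizontal axis, symbols for replicate numbers and lines for group means. Cebpa and Cebpd lie higher in all HET and KO libraries than in any WT library, and KO replicate 2 stands above the other KO libraries for Cebpe, Gfi1 and Irf8.

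Of the 8 factors tested, the C/EBP genes Cebpa and Cebpd rose in HET cells in vitro. Cebpa, the C/EBP gene needed for entry into the granulocyte and monocyte branch, was 73.9, 86.9 and 105 FPKM in WT, 160, 117 and 121 in HET and 132, 121 and 126 in KO. Every HET and KO library exceeded every WT library. In these bulk samples, more cells of a type and more RNA per cell cannot be told apart, for this and every later result. In HET the log2 change against WT, on FPKM + 1, was 0.58 ± 0.13 (SE), with an adjusted p of 0.0391 by limma. In KO it was 0.52 ± 0.13, and the adjusted p of 0.0598 missed the threshold of 0.05. The HET call ended when any of WT replicates 1 or 2, HET replicates 1, 2 or 3 or KO replicates 1 or 3 was left out (highest adjusted p 0.135), and held in 2 of 9 such fits.

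Cebpd, an acute-phase C/EBP gene induced by cytokines, was 6.13, 8.50 and 9.84 FPKM in WT, 17.3, 14.4 and 16.9 in HET and 11.5, 16.2 and 12.2 in KO. Both mutant groups lay above WT with no overlap. The HET mean was 1.98 times the WT mean, with a log2 change of 0.93 ± 0.16 and an adjusted p of 0.00988. Leaving out HET replicate 1 or HET replicate 3 gave adjusted p values of 0.0570 and 0.0628, and the call held in the other 7 of 9 such fits. In KO the log2 change was 0.65 ± 0.16 with an adjusted p of 0.0508, so this increase missed the threshold.

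Cebpb, which drives the granulocyte output of inflammation and acts in macrophages, was 55.8, 54.8 and 81.0 FPKM in WT, 118, 91.3 and 89.0 in HET and 73.7, 92.9 and 68.0 in KO. HET lay above WT with no overlap, whereas KO and WT overlapped. The log2 change was 0.64 ± 0.16 in HET (adjusted p 0.0547) and 0.30 ± 0.16 in KO (adjusted p 0.347), and neither passed the test. Cebpe, the C/EBP gene of late granulocyte maturation, was 89.7, 88.0 and 78.0 FPKM in WT, 111, 90.1 and 98.0 in HET and 77.7, 128 and 77.6 in KO. The HET libraries lay just above WT, and the KO group was split, with replicate 2 the highest of all 9 and the other 2 the lowest. Its log2 change was 0.22 ± 0.17 in HET (adjusted p 0.450) and 0.11 ± 0.17 in KO (adjusted p 0.766). Without KO replicate 2 the KO change of Cebpe turned to -0.13.

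Spi1 was 77.5, 93.3 and 108 FPKM in WT, 121, 103 and 100 in HET and 107, 133 and 103 in KO. The groups overlapped, since WT replicate 3 reached the level of the lower mutant libraries. The log2 change was 0.23 ± 0.13 in HET (adjusted p 0.317) and 0.30 ± 0.13 in KO (adjusted p 0.230).

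Irf8 was 8.21, 5.37 and 6.16 FPKM in WT, 6.86, 9.84 and 8.94 in HET and 5.85, 9.68 and 6.23 in KO. All 3 genotypes overlapped, and the changes of 0.34 ± 0.19 in HET (adjusted p 0.304) and 0.11 ± 0.19 in KO (adjusted p 0.793) did not pass the test. The KO change fell below 0 without WT replicate 2 or without KO replicate 2. Irf4 was 0.0340, 0.0294 and 0.00662 FPKM in WT, 0.0540, 0.256 and 0.225 in HET and 0.0311, 0.0651 and 0.0368 in KO. Its 3 HET libraries lay above the 3 WT libraries at levels far under the filter. The exact two-sided permutation test of HET against WT gave p = 0.1, the smallest value that 3 libraries against 3 can give.

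Gfi1 was 37.7, 32.1 and 32.0 FPKM in WT, 42.5, 43.1 and 45.0 in HET and 35.3, 55.9 and 33.6 in KO. HET lay above WT with no overlap, and in KO replicate 2 alone stood above both other groups. The log2 change was 0.35 ± 0.15 in HET (adjusted p 0.195) and 0.25 ± 0.15 in KO (adjusted p 0.400). Zeb2 was 8.95, 7.98 and 5.15 FPKM in WT, 8.66, 9.31 and 10.3 in HET and 9.10, 7.67 and 9.85 in KO. Its groups overlapped, with WT replicate 3 the lowest library, and the changes of 0.34 ± 0.16 in HET (adjusted p 0.221) and 0.26 ± 0.16 in KO (adjusted p 0.400) did not pass the test.

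**Figure D2:**
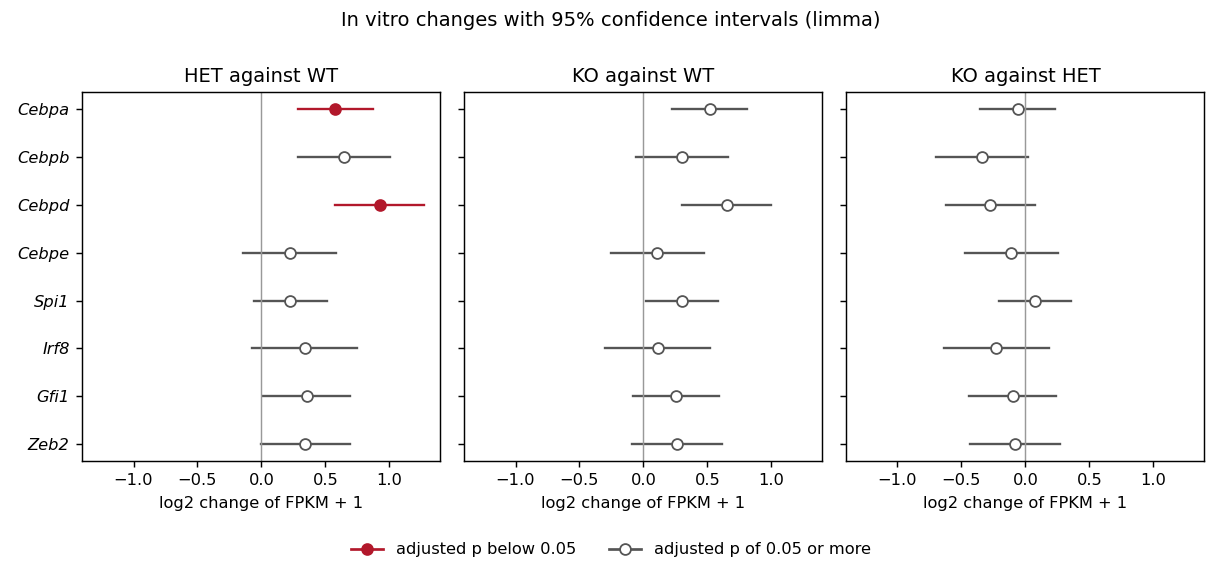
Log2 change of FPKM + 1 for the 8 factors that passed the filter in the 3 in vitro comparisons, with 95% confidence intervals; filled points passed an adjusted p of 0.05. Only Cebpa (0.58) and Cebpd (0.93) in HET against WT are filled, and in the other comparisons no factor passed.

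In HET against WT, 2 of the 8 factors rose and none fell, where 2.94% of the 10877 genes tested rose and 0.735% fell. An unadjusted p below 0.05 was reached by 4 of the 8 and by 23.4% of all genes. All 8 changes were above 0, as were 57.5% of all genes tested, and the median change was 0.35 for the factors and 0.04 for all genes. The HET libraries lay wholly above WT for 5 of the 8, against 17.2% of all genes. In KO against WT none of the 8 was called, where 2.99% of all genes were called in either direction, and 3 of the 8 had an unadjusted p below 0.05 (19.4% of all genes). All 8 changes were again above 0 (59.2% of all genes), with a median of 0.28 against 0.04. The KO libraries lay wholly above WT for 2 of the 8, Cebpa and Cebpd, against 13.8% of all genes. Both comparisons use the same 3 WT libraries, so the shared sign is not a repeat of the finding.

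In KO against HET none of the 8 was called (1.99% of all genes), and none had an unadjusted p below 0.05 (13.2% of all genes). Every factor overlapped between the 2 groups, where 22.4% of all genes did not. The largest change was that of Cebpb, at -0.34 ± 0.16 (95% interval -0.70 to 0.02, adjusted p 0.410). For Cebpd the interval ran from -0.62 to 0.07 and for Cebpa from -0.35 to 0.23, so differences of this size between HET and KO remain possible.

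KO replicate 2 was the highest KO library for 7 of the 9 factors, all but Cebpa and Zeb2. The same library held 10125 summed FPKM of the 12 early granulocyte markers, against 6683 and 6737 in KO replicates 1 and 3. Without it, 4 of the 8 factors were called in HET against WT, Cebpa, Cebpb, Cebpd and Gfi1, and still none in KO against WT. Its part in the results was not tested further.

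In bone marrow none of the 8 factors tested passed the test in any comparison. In WT cells the order of mean FPKM was Spi1 (309.9), Cebpb (266), Irf8 (166), Cebpe (138), Cebpd (56.7), Gfi1 (26.4), Cebpa (16.2), Zeb2 (5.38) and Irf4 (0.179). Each factor overlapped with the next in this order, except Zeb2 with Irf4. The HET group held the 2 libraries of lowest estimated depth. The median change of all genes was -0.99 in HET against WT and 0.83 in KO against HET. Quantile normalization moved these medians to -0.45 and 0.42.

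**Figure D3:**
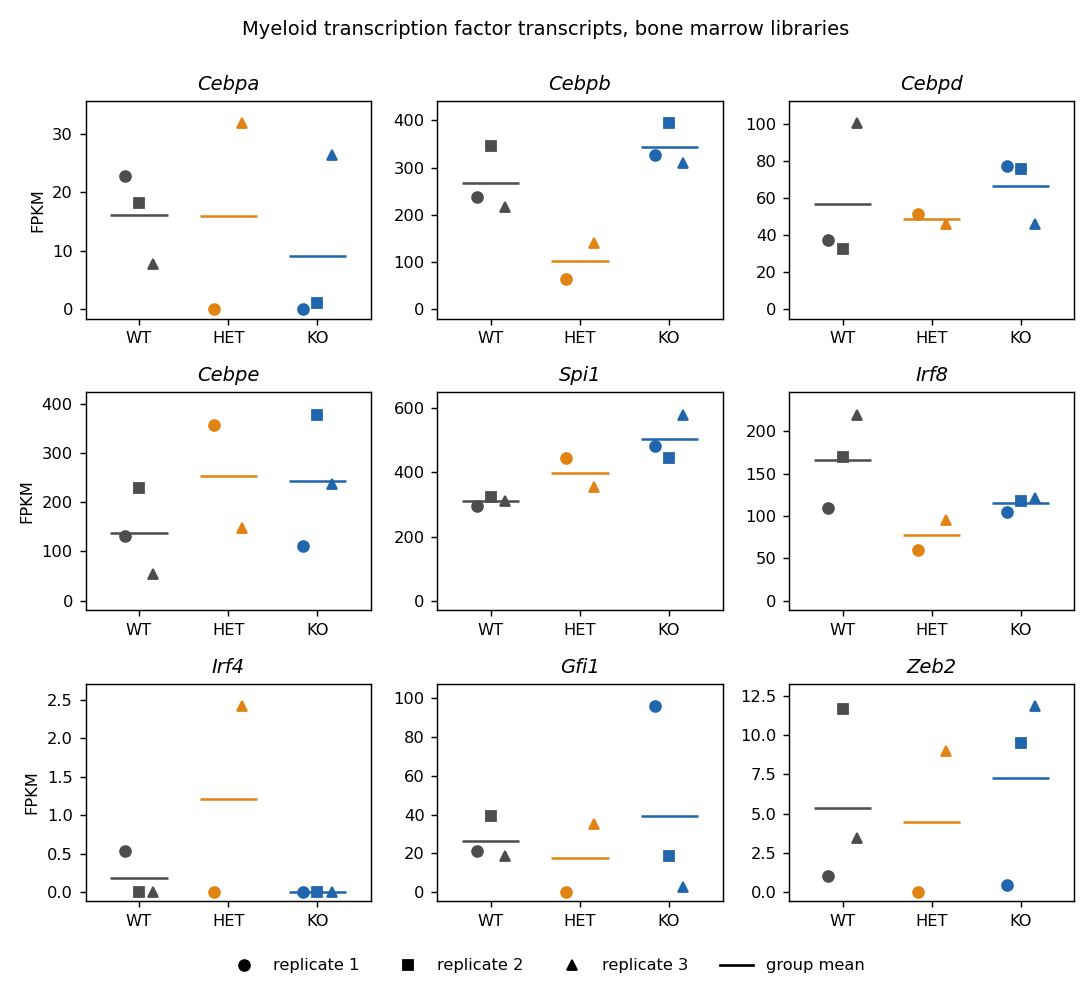
FPKM of the 9 factors in the 8 bone marrow libraries, drawn as for the in vitro set, with 2 HET libraries. Spi1 lies higher in all KO libraries (446 to 580) than in WT (296 to 324), and Cebpa is listed at 0 in HET replicate 1 and KO replicate 1.

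Spi1 in bone marrow was 296, 324 and 309.9 FPKM in WT, 444 and 353 in HET and 481, 446 and 580 in KO. The 3 genotypes did not overlap, with WT lowest and KO highest. The log2 change in KO against WT was 0.69 ± 0.36 with an adjusted p of 0.993, and no gene among 7246 (0%) was called in that comparison, while 5.11% had an unadjusted p below 0.05. Spi1 was the only one of the 8 factors whose KO libraries lay wholly above WT, where 4.11% of all genes did so and 8.14% lay wholly below. In the joint fit the change of Spi1 differed between the sets by -0.39 ± 0.32 (in vitro minus bone marrow, adjusted p 0.859). That fit shared the spread of a gene between the sets, so this SE lay below the 0.36 of bone marrow alone.

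Cebpb in bone marrow was 237, 346 and 216 FPKM in WT, 63.2 and 140.4 in HET and 327, 394 and 311 in KO. The HET libraries lay below all others, whereas in the in vitro set HET had the highest mean. The log2 change was -1.46 ± 0.55 in HET against WT (adjusted p 0.296) and 1.85 ± 0.55 in KO against HET (adjusted p 0.205). The second was called, with an adjusted p of 0.0299, only when HET replicate 3 was left out, a fit in which the single HET library is assumed to vary like the other groups. Irf8 in bone marrow was 109, 169 and 220.0 FPKM in WT, 60.3 and 95.03 in HET and 105, 118 and 122 in KO. HET lay below both other groups, with log2 changes of -1.07 ± 0.67 against WT (adjusted p 0.50) and 0.59 ± 0.67 in KO against HET (adjusted p 0.719). In HET against WT, 2 of the 8 factors (Cebpb and Irf8) lay wholly below, against 24.3% of all genes, and Spi1 lay wholly above, as did 5.8%. None of the 8 was called there, where 0.262% of all genes were called, and 1 of the 8 had an unadjusted p below 0.05 (12.4% of all genes). In KO against HET none of the 8 was called (0.166% of all genes), 1 had an unadjusted p below 0.05 (11.3%) and 3 lay wholly above (20.7%).

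Cebpa in bone marrow was 22.7, 18.1 and 7.67 FPKM in WT, 0 and 31.8 in HET and 0, 1.09 and 26.4 in KO. At the estimated depths these values stand for 632 to 1300 fragments in WT, 97 in KO replicate 2 and 2480 in KO replicate 3, so the KO libraries spread from none to more than any WT library. The log2 change in KO against WT was -2.03 with a 95% interval from -5.81 to 1.75. Gfi1 spread as widely, at 21.1, 39.5 and 18.7 FPKM in WT, 0.163 and 35.0 in HET and 96.0, 18.5 and 2.82 in KO. Zeb2 was 1.04, 11.7 and 3.42 FPKM in WT, 0 and 8.96 in HET and 0.459, 9.50 and 11.9 in KO. Neither gene separated the genotypes.

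Cebpe in bone marrow was 132, 229 and 54.5 FPKM in WT, 357 and 148 in HET and 112, 378 and 237 in KO, with all genotypes overlapping. Cebpd was 37.3, 32.6 and 100.3 FPKM in WT, 51.5 and 45.9 in HET and 77.3, 75.8 and 46.2 in KO, and WT replicate 3 was the highest of all. Irf4 was listed at 0 in 6 of the 8 libraries, with 0.537 FPKM in WT replicate 1 and 2.42 in HET replicate 3. Summed FPKM of the neutrophil markers was lower in each WT library than in any HET or KO library of this set. It was 54769, 41243 and 1426 in WT replicates 1, 2 and 3. In the HET libraries it was 139390 and 139820, and in the KO libraries 225940, 137960 and 173780. Much of the sum came from S100a8, with means of 21023 in WT, 92387 in HET and 107250 in KO. None of the 15 markers tested was called. Their median log2 change was 3.62 in KO and 1.03 in HET against WT, beside -0.18 and -0.99 for all genes. Whether neutrophil content moved the values of the factors was not tested.

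Levels of the factors relative to each other were read from ratios within a library, because the tables may have been scaled separately. In WT, Irf8 was 0.0585 to 0.111 times the Cebpa level in vitro and 4.80 to 28.7 times in bone marrow. Cebpb was 0.630 to 0.769 times Cebpa in vitro and 10.5 to 28.2 times in bone marrow, and Cebpe was 0.740 to 1.22 times Cebpa in vitro and 5.80 to 12.7 times in bone marrow. Without Cebpa in the ratio, Irf8 was 0.167 to 0.217 times Gfi1 in vitro and 4.29 to 11.7 times in bone marrow. None of these 4 ratios overlapped between the sets in WT. Other ratios came closer: Spi1 was 0.863 to 1.38 times Cebpe in vitro and 1.41 to 5.69 times in bone marrow. Cebpe was 2.38 to 2.74 times Gfi1 in vitro and 2.91 to 6.23 times in bone marrow. The share of other gene pairs that separate in this way is not given, so the separation is not shown to be particular to these factors. No test was made, since culture, sorting and table differ together and cannot be told apart. In the joint limma fit of the change from WT to KO, none of the 8 factors was called as different between the sets, where 0.738% of 6915 genes were, and the lowest adjusted p among the 8 was that of Cebpa (2.55 ± 1.68 in vitro minus bone marrow, adjusted p 0.80).

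**Figure D4:**
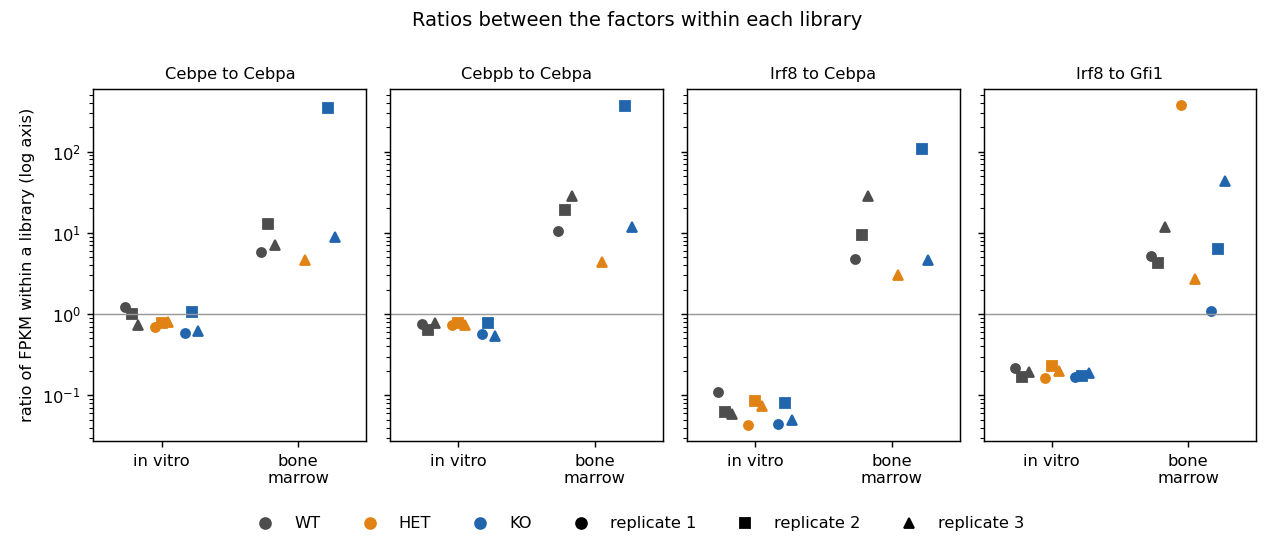
Ratio of FPKM between 2 factors within each library, on a log axis, by set and genotype; 2 bone marrow libraries with Cebpa listed at 0 have no ratio to Cebpa. In WT the ratio of Irf8 to Cebpa was 0.0585 to 0.111 in vitro and 4.80 to 28.7 in bone marrow.

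Across the 9 in vitro libraries the likeness of the factors is described by Pearson's r of log2(FPKM + 1) with no test, since the libraries share genotypes and a scaling. Cebpa, Cebpb and Cebpd were correlated with each other at 0.83 to 0.88, and each with Spi1 at 0.78 to 0.80. Cebpe followed Gfi1 (0.89), and Gfi1 followed Irf8 (0.84). These groups were not separate, since Cebpb and Cebpd correlated with Gfi1 at 0.62 and 0.65, with Cebpe at 0.55 and 0.54 and with Irf8 at 0.42 and 0.40. Zeb2 stayed at or below 0.28 with every other factor.

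The 2 genes whose pattern over these 9 libraries was nearest to each factor were sought among 9182 genes of mean FPKM of at least 2. Cebpd had the closest match, Plaur, the urokinase receptor gene (r = 0.99), followed by Spsb2 (0.97). Cebpa was nearest to Flot2, a membrane scaffold gene (0.98), and Ctu2 (0.97), and Cebpb to Aprt, an adenine salvage enzyme gene (0.97), and Pex14 (0.96). Gfi1 was nearest to Alas1, which encodes the first enzyme of heme synthesis (0.97), and Tfec (0.95). Spi1 was nearest to Gnb2 and B3gat3 (both 0.97), Cebpe to B4galt6 (0.96) and Kcnk12 (0.90), Irf8 to Zfp426 (0.93) and Plppr3 (0.91), and Zeb2 to Tubgcp3 and C2cd5 (both 0.99).

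**Figure D5:**
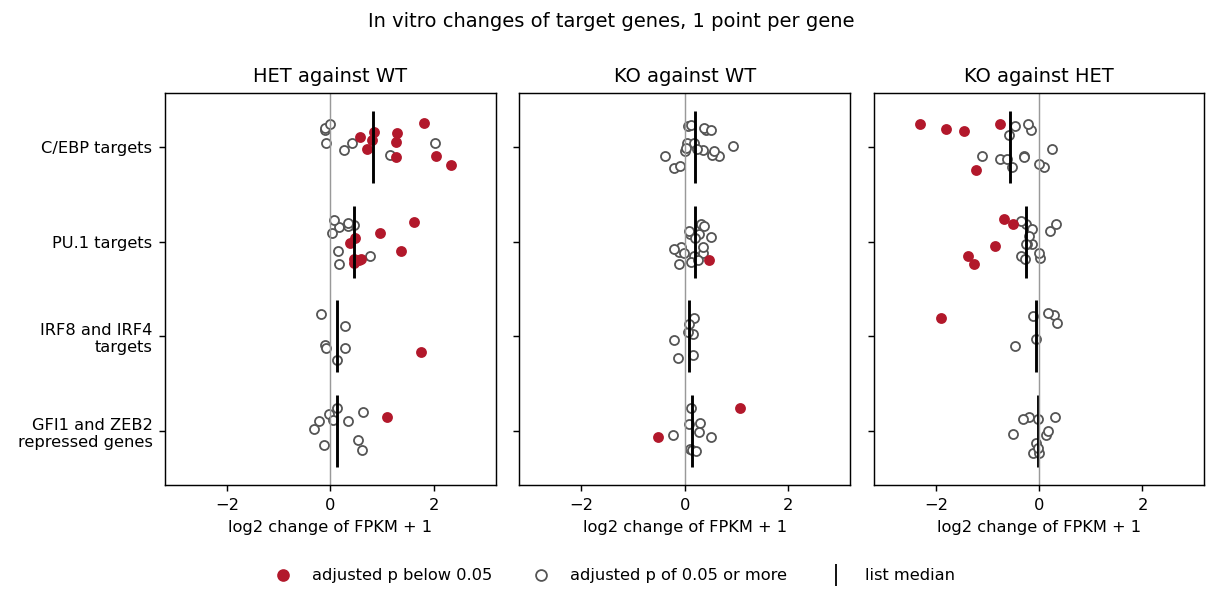
Log2 change of FPKM + 1 of listed target genes in the 3 in vitro comparisons, 1 point per gene that passed the filter, filled where the adjusted p was below 0.05, with a line at the list median. Filled points lie to the right for 10 of 18 C/EBP targets and 9 of 18 PU.1 targets in HET against WT, and to the left for 5 of each in KO against HET.

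Some of the genes listed as targets of C/EBP and PU.1 rose in HET cells in vitro, and the others did not pass the test. These lists were chosen with earlier results of these data known, so their counts are no independent test of the factors. Of 19 listed C/EBP targets, 18 were tested, and 10 rose and none fell in HET against WT (2.94% of all genes rose). The list median was 0.82, beside 0.04 for all genes. Mmp8, a neutrophil collagenase gene, went up from 8.78 ± 0.70 to 48.6 ± 3.4 FPKM (SD, n = 3 each), a log2 change of 2.34 with an adjusted p of 4.64e-05. Lyz2, the myeloid lysozyme gene, rose from 280.0 ± 39.3 to 683 ± 80.3 FPKM (1.29, adjusted p 0.000491), Hp (haptoglobin) from 57.6 ± 5.7 to 103.7 ± 7.9 (0.84, adjusted p 0.0107) and Itgb2l from 1.38 ± 0.70 to 4.67 ± 1.18 (1.28, adjusted p 0.00988). The primary granule genes of the list were not called, with changes of -0.10 for Elane, -0.0081 for Mpo, -0.09 for Prtn3 and -0.11 for Ctsg. In KO against WT none of the 18 was called, with a median of 0.20. In KO against HET 5 fell and none rose (1.99% of all genes changed either way), with a median of -0.56, and these included Mmp8 (-2.31, adjusted p 6.22e-05), Ltf (lactoferrin, -1.81, adjusted p 0.0358), Cd177 (-1.22, adjusted p 0.0184) and Lyz2 (-0.76, adjusted p 0.0191).

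The count of 10 C/EBP targets in HET fell to 2 without HET replicate 2 and to 2 without HET replicate 3, and lay between 7 and 11 under the other settings. Mmp8 and Lyz2 were called in all 9 of these fits without a library, whereas Hp and Itgb2l were lost without HET replicate 2 or 3. The count of 5 in KO against HET fell to 1 without HET replicate 2, HET replicate 3 or KO replicate 3, to 2 without KO replicate 1, to 1 with no filter on low values and to 3 with a pseudocount of 0.1 or a filter at FPKM of 5, and it rose to 8 without WT replicate 1. Mmp8 was called in all 9 fits there too, and Ltf, Cd177 and Lyz2 in 4, 5 and 5 of them. Without KO replicate 2, 3 of the 18 were called in KO against WT. The list shares 7 of its 19 genes with the 18 neutrophil markers and 4 with the 12 early granulocyte markers. Neutrophil markers moved with it, with 8 of 17 tested higher in HET and summed FPKM of 655 to 1898 in WT, 2358 to 4583 in HET and 1620 to 2469 in KO. The 8 became 2 without HET replicate 2 or 3 and 4 with no filter. None of 12 early granulocyte markers was called in any in vitro comparison of the main fits. Under the other settings 0 to 1 were called in HET against WT and 0 to 2 in KO against HET. In KO replicate 2 their summed FPKM of 10125 was the highest of all 9 libraries, while KO replicates 1 and 3 (6683 and 6737) lay below every WT (7871 to 8963) and HET library (7921 to 8269). Without KO replicate 2, 3 of the 12 fell in KO against WT and 3 in KO against HET.

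Of 20 listed PU.1 targets, 18 were tested, and 9 rose and none fell in HET against WT, with a list median of 0.46. Of all genes, 2.94% rose in that comparison, 2.99% were called in KO against WT and 1.99% in KO against HET. Cybb, a subunit of the phagocyte oxidase, rose from 4.29 ± 0.28 FPKM in WT to 15.5 ± 3.2 in HET (log2 change 1.63, adjusted p 4.64e-05). Csf1r, the receptor of macrophage colony-stimulating factor, rose from 2.43 ± 0.65 to 7.80 ± 0.60 FPKM (1.37, adjusted p 0.000311). Clec5a rose by 0.96 (adjusted p 0.000699) and Csf2ra, a subunit of the GM-CSF receptor, by 0.60 (adjusted p 0.00912). In KO against WT only Itgam, which encodes the CD11b integrin chain, rose, from 44.5 ± 3.5 to 62.0 ± 2.4 FPKM (0.47, adjusted p 0.0280), with a list median of 0.19. In KO against HET 5 fell, among them Cybb (-1.37), Csf1r (-1.27), Clec5a (-0.85) and Ncf4 (-0.50), with adjusted p values of 0.000193, 0.000727, 0.00208 and 0.00824. The count of 9 fell to 3 without HET replicate 2 and to 4 without HET replicate 3, and the 5 in KO against HET to 3 without either of these libraries. Cybb, Csf1r and Clec5a kept their calls in all 9 fits without a library in both comparisons. The call of Itgam in KO ended without WT replicate 2 or 3, without any 1 of the KO replicates, with no filter on low values and with the replicate block. The list shares no gene with any of the marker lists. All lists were chosen from general knowledge, with earlier results of these data known. The lack of shared genes therefore does not make the PU.1 list independent of monocyte content. Monocyte and macrophage markers moved with the PU.1 list, with 5 of 9 tested higher in HET and 2 of 9 in KO against WT. Their summed FPKM was 316 to 389 in WT, 424 to 490 in HET and 301 to 517 in KO. The 5 became 3 without any 1 HET library and 2 with a filter at FPKM of 5, and the 2 became 1 without KO replicate 1.

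Of 7 tested genes listed for IRF8 and IRF4, 1 rose in HET, Ctss (cathepsin S), from 4.93 ± 1.56 to 18.8 ± 2.1 FPKM (1.76, adjusted p 0.000257), and it fell by 1.90 in KO against HET (adjusted p 0.000205). None of the 7 was called in KO against WT. The shares of all genes were 2.94% rising in HET against WT, 2.99% called in KO against WT and 1.99% called in KO against HET. Of 11 tested genes listed as repressed by GFI1 or ZEB2, Socs3, an inhibitor of cytokine signalling, rose in HET (1.10, adjusted p 0.00654) and in KO (1.07, adjusted p 0.0105). Cdkn1a, which encodes the p21 inhibitor of the cell cycle, fell by 0.51 in KO against WT (178 ± 9.8 to 124 ± 1.4 FPKM, adjusted p 0.00949). The KO call of Socs3 ended without KO replicate 1 or 3 (highest adjusted p 0.0571), and that of Cdkn1a without KO replicate 3 (adjusted p 0.0573).

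Among the 25 tested partners and regulators of the factors, Klf4, a zinc finger factor of monocytes, rose in HET against WT. It went from 0.703 ± 0.129 to 2.45 ± 0.35 FPKM (1.02, adjusted p 0.00134). Of all genes, 2.94% rose there, and 2.99% were called in KO against WT and 1.99% in KO against HET. In KO against WT, Klf4 rose to 2.51 ± 0.55 FPKM (1.03, adjusted p 0.00231) and Egr2 from 0.810 ± 0.204 to 1.74 ± 0.28 FPKM (0.60, adjusted p 0.0437). No WT library held 1 FPKM of Klf4 or Egr2, so both passed the filter through the groups where they were high. With no filter Klf4 was still called in HET (adjusted p 0.00883) and KO (0.0131), and Egr2 was not (0.0915). Nab2, a corepressor of the EGR factors, fell from 13.9 ± 0.61 to 10.5 ± 0.53 FPKM (-0.37, adjusted p 0.0467). In KO against HET, Nab2 fell by 0.50 (adjusted p 0.0117). Against WT, Egr2 was called in 2 of 9 fits without a library (those without WT replicate 3 or HET replicate 3), and Nab2 in 2 of 9 (those without HET replicate 1 or KO replicate 2). The fall of Nab2 against HET ended without HET replicate 2 or 3 or KO replicate 1 or 3. None of 9 tested relatives of the factors, such as Gfi1b and Irf9, was called in any in vitro comparison. Of 13 tested factors of other lineages and of stem cells, Hlf rose in KO against both WT (1.07, adjusted p 0.00103) and HET (1.13, adjusted p 0.000510), and Mecom in KO against HET (0.74, adjusted p 0.00490). Hlf was 0.731 ± 0.196 FPKM in WT, 0.665 ± 0.180 in HET and 2.63 ± 0.21 in KO, and it passed the filter through the 3 KO libraries alone. It was therefore not tested where a KO library was left out, and with no filter its adjusted p was 0.00642 against WT and 0.00262 against HET.

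Markers of other cells that were called in the in vitro set are given beside the shares for all genes, 2.99% in KO against WT and 1.99% in KO against HET. In HET against WT, 2.94% of all genes rose and 0.735% fell. Among eosinophil, basophil and mast cell markers 1 of 14 was called in KO against WT, Ear2, which fell from 23.4 ± 9.6 to 4.75 ± 1.54 FPKM (adjusted p 0.0336). Of 12 tested erythroid and megakaryocyte markers, Pf4 fell in KO (-0.45, adjusted p 0.0451) and Hba-a1 in HET (-0.59, adjusted p 0.00988) against WT. Of 10 tested stem and progenitor markers, 2 rose in KO against WT, Hlf and Flt3, and 3 in KO against HET, Hlf, Flt3 and Mecom, where Hlf and Mecom are the genes already given among the factors of other lineages. Flt3, a cytokine receptor gene, rose by 0.64 against WT (adjusted p 0.0168) and by 0.60 against HET (adjusted p 0.0232), and was the 1 of 3 tested dendritic cell markers called. The count of 3 fell to 1 without any 1 KO library or with a filter at FPKM of 5 and was 5 with only the compared groups. The count of 2 fell to 0 without KO replicate 1 or 3 and with that filter, fell to 1 without WT replicate 2 or KO replicate 2 and was 4 without WT replicate 1. Neither of 2 tested B, T and NK cell markers was called in any in vitro comparison, and of 2 stroma and endothelial markers Pdgfrb fell in KO against HET (-0.57, adjusted p 0.0358). The calls of Ear2, Pf4 and Pdgfrb held in 4, 3 and 2 of 9 fits without a library, and each ended without any 1 KO library. The call of Hba-a1 ended without HET replicate 1 or 3. Y-linked transcripts rose and Xist fell in HET against WT, with Ddx3y at 3.19 ± 0.73 FPKM in WT, 9.93 ± 1.56 in HET and 6.46 ± 0.86 in KO, and Xist at 42.0 ± 9.4, 15.4 ± 3.0 and 36.1 ± 9.6. Of 5 sex-linked transcripts tested, 4 rose and 1 fell in HET against WT. In KO against WT, Ddx3y, Kdm5d and Eif2s3y rose (adjusted p 0.0139, 0.0204 and 0.0334). These calls held in 7, 6 and 1 of 9 fits without a library. In KO against HET, Eif2s3y fell and Xist rose (adjusted p 0.00239 and 0.0216), in 9 and 5 of these fits. Every in vitro library held both Xist and Y-linked transcripts, and whether the mix of male and female cells moved the values of the factors was not tested. In bone marrow, mean Xist was 46.9 FPKM in WT, 48.3 in HET and 9.54 in KO. Xist and the Y-linked transcripts together summed to 37.6 to 57.2 FPKM in WT, 31.4 to 65.1 in HET and 14.1 to 39.6 in KO. None of the 3 tested was called in any bone marrow comparison. Whether the sex of the cells moved the factors there was not tested either.

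In bone marrow, Slpi, a protease inhibitor gene in the C/EBP list, was the 1 gene of these target, partner and marker lists that was called. It fell from 2973 ± 832 FPKM in WT to 631 ± 0.57 in HET (SD, n = 3 and 2, log2 change -2.20, adjusted p 0.0118) and was higher in KO than in HET at 1999 ± 298 (1.65, adjusted p 0.0459), beside medians for all genes of -0.99 and 0.83. Both calls ended without any 1 WT or KO library, with the replicate block and with only the compared groups (highest adjusted p without a library 0.0867 and 0.319), and the second also with no filter and with quantile normalization. None of 19 C/EBP targets and none of 17 PU.1 targets was called in KO against WT, with list medians of 1.16 and 0.00 beside -0.18 for all genes.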

How the data were processed

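RNA of sorted mouse bone marrow cells was extracted with TRIzol and sequenced from VAHTS Universal libraries, per the labels' protocols. Per the submitters' processing notes the genome was mm10. No source used here names the aligner, counter or annotation. Values are FPKM that the authors deposited in a table for each set (9 and 8 libraries). FPKM hold no counts, and a few very abundant transcripts lower the values of all others. HET replicate 2 of the bone marrow set was not analysed here.

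Tests used limma 3.58.1 (R 4.3.3, statmod 1.5.0) on log2(FPKM + 1) with trend and robust moderation, over genes reaching 1 FPKM in 3 or more libraries, and Benjamini-Hochberg adjustment over all of them at 0.05. A mean per genotype was fitted, with all genotypes of a table sharing the spread. This scale understates changes of low genes. Difference between sets came from a joint fit, in which the libraries of both tables shared the spread of a gene. Bone marrow libraries varied more, so the SE, p-values and calls of this fit may understate the bone marrow spread. The fits were tested on simulated data. Depth was estimated from low FPKM of genes with known length and entered no test. The labels do not tie libraries to mice, so the spread behind each p-value may be technical.

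The 9 genes and the 17 gene lists (246 names, from general knowledge of these factors and cell types) were chosen with earlier results of these data known. From lists other than markers, at most 4 called genes with the smallest p per comparison were named. One result of the list of partners and regulators is not reported here. From marker lists, called genes named in the text were chosen after their values were seen. The 2 nearest genes by Pearson's r excluded predicted genes.

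Alternatives were a pseudocount of 0.1, no filter, a filter at FPKM of 5, median-ratio factors, quantile normalization, only the compared groups, a replicate block and leaving out each library. List counts and calls of single list genes under these settings were added after the data were seen.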

Additional observations from a re-analysis of the deposited data

How the results depend on the processing

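The 2 calls among the factors in HET against WT in vitro became 1 with no filter on low values, with median-ratio size factors, with only the compared groups in the fit and with the replicate block, and in each of these Cebpa was the call that ended (adjusted p 0.102, 0.0644, 0.0729 and 0.070). Quantile normalization added Cebpb there (adjusted p 0.0378). In KO against WT, 1 factor was called with a filter at FPKM of 5 (Cebpd, adjusted p 0.0469) and 1 with quantile normalization (Cebpa, adjusted p 0.0432). The cause was not tested. Leaving out each library gave 0 to 4 factors in HET against WT, 0 to 2 in KO against WT and 0 in KO against HET, and in bone marrow 0 in both comparisons with WT and 0 to 1 in KO against HET.

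Over all genes in vitro, 325 calls in KO against WT became 152 with no filter, 172 with the replicate block and 176 with only the compared groups (66 to 475 without a library). The 320 higher and 80 lower calls in HET against WT became together 250 with no filter and 234 with the block (84 to 628), and the 216 in KO against HET became 136 at FPKM of 5 (73 to 344). The share of calls that were higher moved from 45.5% to 35.4% in KO against WT with median-ratio factors and from 80% to 60.6% in HET against WT with quantile normalization. In bone marrow, KO against WT had 2 calls with quantile normalization (0 to 4 without a library). The 19 calls in HET against WT became 35 with a pseudocount of 0.1, 0 with the block and 0 with only the compared groups (0 to 323). The 12 in KO against HET became 31 with a pseudocount of 0.1, 6 with no filter, 0 with the block and 0 with only the compared groups (0 to 330). The 51 calls for the difference between sets became 30 at FPKM of 5 and 25 with quantile normalization (19 to 135).

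Signs that turned belonged to changes that passed no test. In KO against HET in bone marrow Cebpe turned to 0.14 with median-ratio factors and 0.066 with quantile normalization, and Gfi1 to -0.45 with quantile normalization. In HET against WT there Cebpd turned to 0.029 and Zeb2 to 0.10 with quantile normalization, and the difference between sets for Zeb2 turned to -0.17 and -0.51 under these 2 scalings. Without a library, in vitro changes ranged in KO against WT from -0.13 to 0.23 (Cebpe) and -0.090 to 0.26 (Irf8), and in KO against HET from -0.14 to 0.081 (Cebpa), -0.35 to 0.0094 (Cebpe), -0.33 to 0.031 (Gfi1), -0.040 to 0.16 (Spi1) and -0.15 to 0.010 (Zeb2). In bone marrow they ranged in KO against WT from -1.60 to 0.74 (Gfi1) and -0.36 to 1.26 (Zeb2), in HET against WT from -3.98 to 1.06 (Cebpa), -0.33 to 0.47 (Cebpd), -4.49 to 0.47 (Gfi1) and -2.28 to 1.04 (Zeb2), and in KO against HET from -3.09 to 1.95 (Cebpa), -0.73 to 0.54 (Cebpe), -0.90 to 4.05 (Gfi1) and -0.78 to 2.54 (Zeb2). The difference between sets ranged from -0.29 to 0.091 (Cebpb), -0.22 to 0.57 (Cebpd), -0.48 to 1.85 (Gfi1) and -0.996 to 0.63 (Zeb2).

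The labels do not say whether replicate numbers pair the libraries, and the main fits did not pair them. In vitro, deviations from group means correlated at -0.303 to 0.181 for same-numbered libraries (3 of 9 over 0.1). For differently numbered libraries they correlated at -0.331 to 0.374 (8 of 18). In bone marrow the ranges were -0.0191 to 0.0323 (0 of 7) and -0.0373 to 0.0210 (0 of 14). Deviations cancel within a genotype, which ties these values to each other, so they cannot exclude pairing. Precision was limited by 2 or 3 libraries a group. In bone marrow the HET libraries also had the lowest estimated depth.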
